A study of Mus musculus with 41 samples.

Results

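The 10 genes described here are brakes of the cell cycle, followed through 7 sorted stages of mouse B cell development. They are the CDK inhibitors Cdkn1a, Cdkn1b, Cdkn2c and Cdkn2d, the retinoblastoma family Rb1, Rbl1 and Rbl2, and the antiproliferative genes Btg1, Btg2 and Tob1. They were taken by name, as every probe set that the array annotation assigns to 1 of these genes alone. This gave 21 probe sets for 10 of 18193 named genes. The arrays were made from RNA of flow-sorted common lymphoid progenitors (CLP, n = 7) and of Hardy fractions A (n = 7), B (n = 7), C (n = 5), D (n = 5), E (n = 5) and F (n = 5). All 41 samples came from C57BL/6 mice with wild-type Pax5, and none was treated. The labels give neither the age of the mice, the tissue, the sorting gates nor whether arrays are separate animals, so the tests rest on array-to-array spread that may be technical, and p-values cover no more than that. The signals are the deposited MAS5 values, which had been scaled by the authors to the same trimmed mean on each array, and differences below are in log2(signal + 32), which understates the change of low signals.

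A cell enters S phase when cyclin-dependent kinases phosphorylate the retinoblastoma proteins and so free the E2F transcription factors. The CIP/KIP inhibitors (Cdkn1a, p21; Cdkn1b, p27) bind cyclin-kinase complexes, and the INK4 inhibitors (Cdkn2c, p18; Cdkn2d, p19) bind Cdk4 and Cdk6. Rb1 acts mainly on activator E2Fs, while Rbl1 (p107) and Rbl2 (p130) act with repressor E2Fs, Rbl2 in resting cells and Rbl1 in cycling cells, where Rbl1 is itself an E2F target. BTG and TOB proteins slow proliferation in part by recruiting the CCR4-NOT deadenylase, which shortens mRNA tails, and Btg1 and Btg2 are known to restrain pre-B cells. In the textbook scheme, Hardy fractions B and C hold pro-B and early pre-B cells, D small pre-B cells, E immature and F mature B cells, and bursts of division precede the small pre-B stage.

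Array medians ranged from 69.1 to 153.1, no pair of arrays was identical, and the most alike pair correlated at 0.983. Fraction A was the most variable, with a median gene SD of 0.795 on the log2 scale against 0.255 in D. Its Gapdh 3'/5' ratios reached 33.8 on array 4 and 16.7 on array 7, against 3.56 to 10.8 in the other populations. In fraction A, 6 of 7 B lineage markers were lower than in CLP, and their summed signal had a median of 6384 and ranged from 2332 to 67037, against 29574 to 42991 in CLP, so the highest A array lay above every CLP array. Markers of natural killer cells (NK) summed to 48863 to 77559 in A, against 2346 to 2873 in CLP, and 8 of 9 were higher. Of the 7 plasmacytoid dendritic markers, 6 were higher in A than in CLP. In C, 8 of 9 tested myeloid markers were higher than in B (summed signal 56343 to 74739 against 4395 to 19909) and 6 of 9 NK markers were higher. In D the same lists fell again, 8 of 9 and 7 of 9 markers, to sums of 17419 to 23482 and 905 to 1304. On every D array 8 of the 9 NK markers lay below the array median. The myeloid sum ranged from 12288 to 95717 in E, with a median of 23510, so the highest E array lay above every C array. In CLP it ranged from 17933 to 57694. In bulk RNA, fewer cells of a type and less RNA per cell cannot be told apart. The part of these markers in the results on CLP, A, C and E was not tested.

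The 250 bases upstream of the RefSeq start sites (GRCm38.p6) are shown for 4 members whose window holds a well-known motif, chosen to show 4 different motifs, with the motif in capitals and 5' to 3' on the gene's strand. Gene positions given below are of the same build. Of the 10 genes, 9 had a window in the RefSeq promoter table, 11 windows in all, and Rb1 had none there. The Cdkn1a window, at chr17:29090729-29090978 on the plus strand, marks each full match to the p53 half-site, and the full matches do not adjoin. The bases directly after the match nearer the start, tgacatgttc, differ from the half-site only in their opening letter and are not marked. The Rbl1 window, at chr2:157204535-157204784 on the minus strand, marks an E2F site. The Btg1 window, at chr10:96616751-96617000 on the plus strand, marks a FOXO site read on the opposite strand. The Btg2 window, at chr1:134079156-134079405 on the minus strand, marks a cyclic AMP response element (CRE).
Cdkn1a: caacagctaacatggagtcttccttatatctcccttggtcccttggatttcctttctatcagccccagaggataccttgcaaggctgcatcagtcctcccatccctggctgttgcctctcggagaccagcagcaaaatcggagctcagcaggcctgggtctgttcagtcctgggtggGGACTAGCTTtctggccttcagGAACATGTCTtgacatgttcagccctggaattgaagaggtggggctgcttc
Rbl1: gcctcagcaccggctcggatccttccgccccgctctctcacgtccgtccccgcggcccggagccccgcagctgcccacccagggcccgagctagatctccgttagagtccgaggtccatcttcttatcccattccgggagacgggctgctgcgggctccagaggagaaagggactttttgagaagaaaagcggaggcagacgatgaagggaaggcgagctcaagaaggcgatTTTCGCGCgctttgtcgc
Btg1: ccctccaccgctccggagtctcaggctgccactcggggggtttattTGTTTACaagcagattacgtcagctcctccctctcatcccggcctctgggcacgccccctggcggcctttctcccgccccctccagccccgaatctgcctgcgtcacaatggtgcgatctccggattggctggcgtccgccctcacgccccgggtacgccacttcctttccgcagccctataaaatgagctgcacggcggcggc
Btg2: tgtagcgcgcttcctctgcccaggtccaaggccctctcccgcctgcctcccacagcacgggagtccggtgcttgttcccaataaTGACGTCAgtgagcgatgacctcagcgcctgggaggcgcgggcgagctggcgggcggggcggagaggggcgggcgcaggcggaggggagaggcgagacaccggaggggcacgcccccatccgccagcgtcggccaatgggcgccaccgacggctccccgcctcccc
Motifs were searched on both strands and were chosen after the values had been seen. The E2F letters were TTTGGCGC, TTTCGCGC, TTTCCCGC or TTTGCCGC, found in 1.86% of 32851 windows of the same length and, among members, in Rbl1, 18 to 11 bases before the start. The FOXO letters GTAAACA were in 3.17% of windows and in Btg1 (204 to 198 bases before the start). The palindromic CRE, TGACGTCA, was in 1.55% of windows and in Btg2 (166 to 159 bases before the start). The share of windows with any p53 half-site was 7.13%. Among members the half-site was found in Cdkn1a (73 to 64 and 51 to 42 bases before the start next to the window shown) and Cdkn2d. The other Cdkn1a window, at chr17:29093519-29093768 on the plus strand, held none of the searched motifs. The CHR element TTTGAA, known from DREAM targets, was in 16% of windows and in Rbl2. A match of letters is a description and not evidence of binding, and none of the searched motifs overlapped another in the windows shown.

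All 10 genes passed the filter on low signals and were tested among 11951 genes in 1 limma fit of all 41 arrays. At probe set level 19 of 21 passed; 1 of the 4 Rbl1 probe sets and 1 of the 2 Tob1 probe sets reached the array median on no array. All 10 genes differed somewhere among the 7 populations by the moderated F-test (adjusted p from 6.06e-12 for Btg1 to 0.00535 for Cdkn2d), where 73.3% of all tested genes did. The count of members was 9 with quantile normalization and with median centring. It was also 9 when probe sets were averaged, where Tob1 did not pass the filter and was not tested. A call below is a Benjamini-Hochberg adjusted p under 0.05 over all tested genes. Among steps between neighbouring populations, most members were called from C to D, where 6 rose and none fell, while 7.51% of tested genes rose and 13.8% fell; the members' median difference was 0.69 against -0.10 for all genes. Between D and E, 2 members fell and none rose (all genes 4.21% and 3.90%; medians -0.58 and 0.01). Between CLP and F, 4 rose and 3 fell (all genes 15.2% and 26.7%; medians 0.33 and -0.15).

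At the earlier steps the members split. From CLP to A, 3 rose and 2 fell (all genes 11.5% and 25.6%; medians -0.22 and -0.23). From A to B, 2 rose and 2 fell (16.9% and 14.5%; medians 0.10 and 0.02), and from CLP to B, 2 rose and 2 fell (8.81% and 19.1%; medians -0.02 and -0.20). From B to C, 1 rose and 1 fell (14.2% and 8.75%; medians 0.21 and 0.19). From E to F no member was called by limma, and none had an unadjusted p under 0.05, while 0.251% of genes rose, 0.218% fell and 728 had an unadjusted p under 0.05. Scaling bears on the steps that involve A or B. With each array centred on its median, the all-gene median moved from -0.23 to 0.01 for A against CLP, from 0.02 to 0.21 for B against A, from -0.20 to 0.22 for B against CLP and from 0.19 to -0.23 for C against B. The split of all called genes, higher and lower, then went from 1377 and 3058 to 2068 and 1804 for A against CLP, and from 2015 and 1730 to 2942 and 1139 for B against A. It went from 1053 and 2280 to 2611 and 883 for B against CLP, and from 1693 and 1046 to 548 and 2290 for C against B. For the members, the same centring gave 3 higher and 1 lower in A against CLP, 4 and 1 in B against A, 4 and 0 in B against CLP and 0 and 2 in C against B. The member counts for D against C stayed at 6 higher and 0 lower with median centring and with quantile normalization. They did not stay so in every alternative. Averaging over probe sets gave 4 higher and 1 lower, with Tob1 not tested there, and a pseudocount of 1 gave 5 and 0. Array weights gave 7 and 1, as did a fit of C and D alone. Calls over all genes went up as well, to 18.4% higher and 27.8% lower with array weights and 17.2% and 26.7% with C and D alone. The lower gene was Cdkn1a each time.

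**Figure D1:**
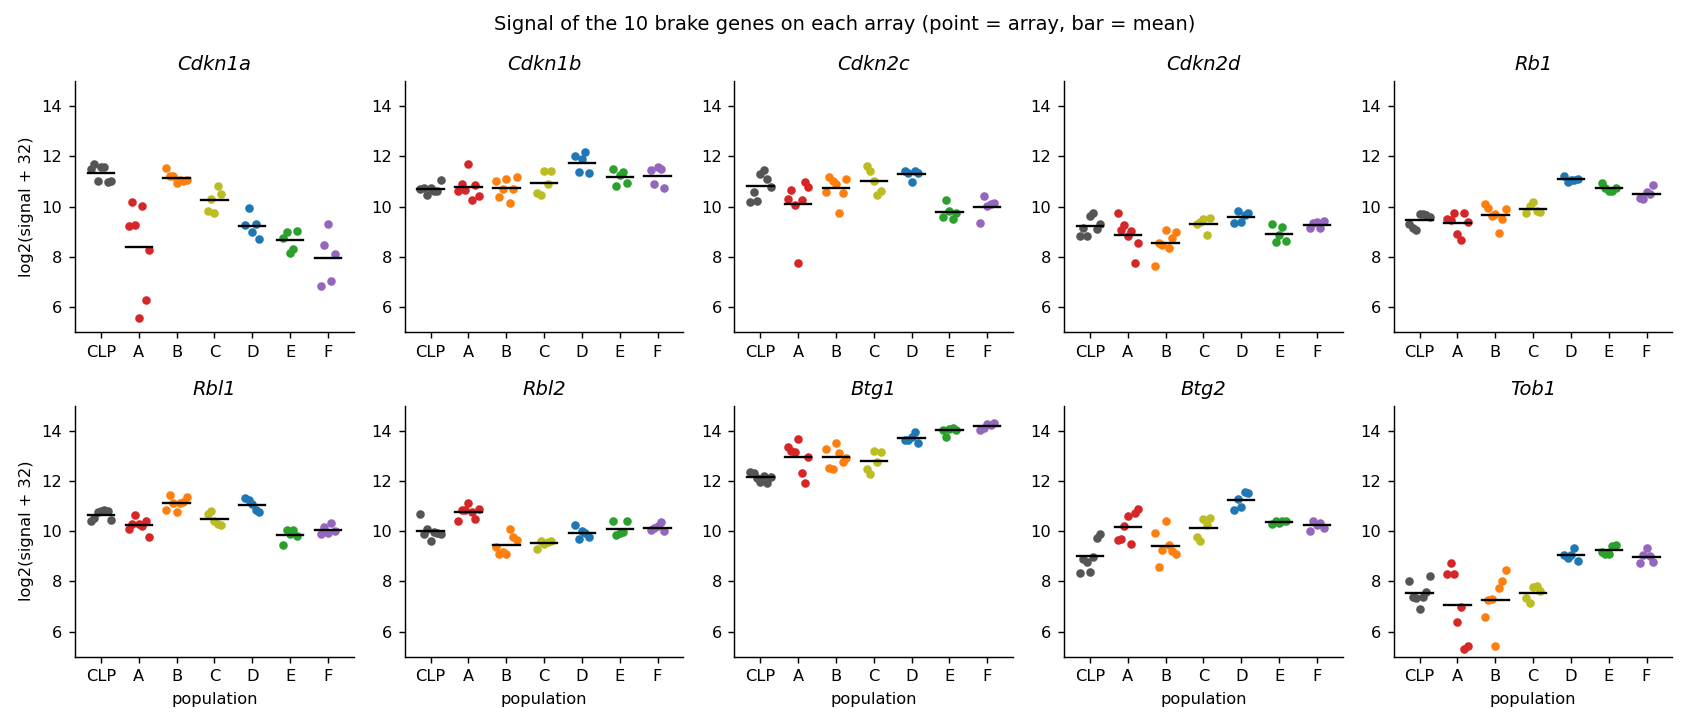
Signal of the 10 genes on each array as log2(signal + 32), with 1 point per array, a bar at the population mean, and the populations CLP and A to F along the horizontal axis. Btg1, Rb1 and Tob1 are high in D, E and F, Cdkn2c and Rbl1 are low in E and F, and Cdkn1a falls from a mean of 11.14 in B to 7.95 in F.

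Cdkn1a (chr17:29090979-29100722) encodes p21, the inhibitor that p53 induces. Its signal was 1962, 2869 and 3263 (lowest, median and highest of 7 arrays) in CLP, 15.9, 573 and 1133 in A, and 1919, 2116 and 2944 in B. The 5 arrays of C gave 886.5, 1243, 830.2, 1763 and 1428, those of D 581, 958, 472, 609 and 385, those of E 404, 476, 250.4, 287 and 496, and those of F 83.9, 318, 609.9, 98.6 and 243. The order of the means was CLP, B, C, D, E, A and F, and B and C were the only neighbours in it whose arrays did not overlap. A was lower than CLP by a log2 difference of -2.93 ± 0.44 (SE; adjusted p = 1.25e-06) and B higher than A by 2.74 ± 0.44 (3.61e-06), with no overlap of arrays in either. On 2 of the 7 A arrays, 4 and 6, the signal of 15.9 and 46.2 was below the array median. F was lower than CLP by -3.38 ± 0.48 (2.38e-07), which is 10.4-fold on this scale, and no arrays overlapped. The steps within the series of declining means from B to F were not called one by one: C against B was -0.90 ± 0.48 (adjusted p = 0.179) and D against C -1.0 ± 0.52 (0.17). Both values passed when only the populations compared were fitted (0.0035 and 0.00257; range over all alternatives 0.0035 to 0.335 and 0.00257 to 0.296). A second Cdkn1a probe set, 1421679_a_at, gave D against C as -1.24 ± 0.32 (adjusted p = 0.00419 over all 23052 probe sets tested), and F against CLP as -3.29 ± 0.30. That probe set was below the array median on all arrays of D, E and F. It gave C against B as -0.42 ± 0.30 (0.326), with overlapping arrays. B against CLP was -1.0 ± 0.27 on it (0.00502), without overlap, where the first probe set gave -0.19 ± 0.44 (0.791), with overlap.

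Cdkn1b (chr6:134920401-134925525) encodes p27, which holds Cdk2 in check and is removed by the SCF-Skp2 ubiquitin ligase. Its signal was 1385, 1634.5 and 2106 in CLP (lowest, median, highest), 1196, 1567 and 3319 in A and 1094, 1654 and 2258 in B. In C the arrays gave 1452, 1379, 2697, 1891 and 2730.3, and in D 4066.5, 2642, 3759, 4582.5 and 2542. E gave 2870.0, 1794, 2448, 2637 and 1918, and F 2781, 1862, 3050.1, 2833 and 1692. D stood highest in the order D, F, E, C, A, B and CLP, yet each neighbouring pair overlapped. The rise from C to D was 0.80 ± 0.24 (adjusted p = 0.0118), from a mean signal of 2029.9 ± 654 (SD, n = 5) to 3518 ± 896 (n = 5), and C arrays 3 and 5 lay within the D range. Without C array 2 this call was lost (0.051; range over alternatives 0.000222 to 0.051). The second probe set, 1419497_at, rose by 1.22 ± 0.25 from C to D without overlap (0.000375), from 834 to 1454 in C to 2275 to 3369.5 in D. The probe sets did not match elsewhere: A against CLP was 0.06 ± 0.20 (0.85) on the first and 0.88 ± 0.21 (0.00106) on the second. F against CLP was 0.52 ± 0.22 (0.0525) on the first and 1.21 ± 0.23 (3.64e-05) on the second. On the first probe set this value passed without CLP array 7 (0.039), F array 2 (0.0371) or F array 5 (0.0259), and over all alternatives its adjusted p ranged from 0.000228 to 0.146.

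Cdkn2c (chr4:109660876-109666756) encodes p18, an INK4 inhibitor known for its part in B cell and plasma cell arrest. Its mean was highest in D and C and lowest in F and E, and the arrays of A, B and CLP overlapped those of F. The signal was 1116, 1729 and 2776 in CLP, 185, 1233 and 2006 in A, and 827, 1876 and 2272 in B (lowest, median, highest). The C arrays gave 3087, 2719, 2029.9, 1389 and 1546, and the D arrays 2717, 2553, 2011, 2673 and 2566. The E arrays gave 739.9, 1198, 864.5, 699 and 826, and the F arrays 619.7, 1347, 995, 1063 and 1092.5. From D to E it fell by 1.52 ± 0.36 on the log2 scale (adjusted p = 0.0029), from 2504 ± 284 (SD, n = 5) to 866 ± 197 (n = 5), and each D array lay above each E array. D against C was 0.27 ± 0.36 (0.635), with overlap. F against CLP was -0.80 ± 0.33 (0.0477), a call that was lost without any 1 of CLP arrays 4, 5, 6 and 7 or F arrays 1, 3, 4 and 5 (adjusted p from 0.0605 to 0.153; over all alternatives 0.000211 to 0.153). A against CLP was -0.69 ± 0.30 (0.0666), and without A array 2, 6 or 7, or CLP array 1 or 3, it passed (0.0279 to 0.046; over all alternatives 0.027 to 0.314). B against A was 0.61 ± 0.30 (0.12), and 0.77 without B array 5 (0.0493; range 0.0306 to 0.494).

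Cdkn2d (chr9:21288459-21291421) encodes p19 of the INK4 family and had the weakest F-test of the 10 genes. Its signal ran from 422 to 833 in CLP, 181 to 824 in A, 169 to 510.5 in B, 437 to 711 in C, 621 to 874 in D, 353 to 602 in E and 531.5 to 661 in F. B was lower than CLP by -0.68 ± 0.23 (adjusted p = 0.0218) and C higher than B by 0.78 ± 0.25 (0.0199), both with overlapping arrays. The first call was lost without CLP array 4 (0.0509), CLP array 5 (0.059) or B array 1 (0.0759), and the second without B array 1 (0.0577), C array 3 (0.0525) or C array 5 (0.0579). Both were also lost with quantile normalization (0.284 and 0.208) and with median centring (0.483 and 0.387), and the ranges over alternatives were 0.000456 to 0.483 and 0.00221 to 0.387. E was lower than D on every array, 353 to 602 against 621 to 874, but the difference of -0.67 ± 0.27 had an adjusted p of 0.142. In a fit of D and E alone it was 0.00561, and over all alternatives 0.00329 to 0.297.

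Rb1 (chr14:73192858-73325951) encodes the retinoblastoma protein itself. Its signal was 508, 740.4 and 799 in CLP, 381, 669.9 and 834 in A, and 467, 812 and 1075 in B (lowest, median, highest). The C arrays gave 818, 1014, 1115, 868.5 and 861. The D arrays gave 2362, 1962, 2097, 2124 and 2151.5, the E arrays 1932, 1662, 1563, 1533 and 1677, and the F arrays 1281, 1248, 1492, 1418 and 1804. Rb1 was thus in separate ranges before and after the step from C to D: each array of D, E and F lay above each array of CLP, A, B and C. The rise from C to D was 1.17 ± 0.21 (adjusted p = 4.94e-05), from 935 ± 125 (SD, n = 5) to 2139 ± 144 (n = 5), and F against CLP was 1.07 ± 0.19 (1.52e-05). D was highest, without overlap with E, but E against D was -0.35 ± 0.21 (0.43; over alternatives 0.0135 to 0.903). B against A was 0.33 ± 0.17 (0.146), and it passed without B array 5 (0.0387; over alternatives 0.03 to 0.513). The second probe set, 1444400_at, gave D against C as 0.85 ± 0.44 with overlap (0.173, not called) and was 1.59 ± 0.40 higher in F than in CLP (0.00158).

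Rbl1 (chr2:157145893-157204534) encodes p107 and was called at more steps than any other member. Its signal was 1331.5, 1695 and 1785 in CLP, 844, 1213 and 1588 in A, and 1689, 2219 and 2755 in B. C gave 1595, 1745, 1339.5, 1208.5 and 1179, D gave 2500.3, 2385, 2121, 1801 and 1729, E gave 661, 1024, 916, 1015 and 855, and F gave 915, 1109.7, 950.2, 1238 and 996. It went down from CLP to A (-0.41 ± 0.15; adjusted p = 0.0276), up to B (0.88 ± 0.15; 1.29e-05), down to C (-0.63 ± 0.16; 0.00385), up to D (0.57 ± 0.18; 0.0181) and down to E (-1.21 ± 0.18; 3.13e-06). B against CLP was 0.46 ± 0.15 (0.0179) and F against CLP -0.59 ± 0.16 (0.0034). Arrays did not overlap between A and B, between D and E or between CLP and F. The fall from D to E, from 2107 ± 342 (SD, n = 5) to 894 ± 148 (n = 5), was called in each of 24 alternatives. The rise from C to D was lost without C array 4 (0.0509), C array 5 (0.0547), D array 1 (0.0606) or D array 2 (0.0502), and ranged from 0.000279 to 0.288. The fall from CLP to A was lost without CLP array 4 (0.0538), 5 (0.0561) or 6 (0.0532) or A array 7 (0.0688) and with median centring (0.432), and ranged from 0.0111 to 0.432. The probe sets differed in these steps. The fall from CLP to A was called on 1425166_at (-1.06 ± 0.29; 0.0036) and on 1432604_at (-0.91 ± 0.33; 0.0256) as well, while the rise from A to B was called on neither (0.51 ± 0.29; 0.179, and 0.66 ± 0.33; 0.125). The first of these gave C against B as 0.20 ± 0.31 (0.699) and D against C as -0.02 ± 0.34 (0.972), while E against D was -1.05 ± 0.34 (0.0479) and F against CLP -1.34 ± 0.31 (0.000657). With the mean of the probe sets, B against CLP turned to -0.08 (0.761; range over alternatives 7.36e-05 to 0.761), and C against B (-0.07; 0.799) and D against C (0.28; 0.288) were not called. The third, 1432604_at, gave E against D as -0.96 ± 0.39 (0.155), without overlap of arrays.

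Rbl2 (chr8:91070057-91123844) encodes p130, the pocket protein of resting cells. Its signal was 754, 951 and 1629 in CLP, 1325, 1799 and 2198 in A, and 508, 634 and 1045 in B (lowest, median, highest). C gave 603, 741, 686, 737 and 743.5, D gave 1196, 799.8, 999, 948 and 835, E gave 1312, 886, 933, 982 and 1313, and F gave 1017, 1083, 1147, 1272 and 1010.0. A was higher than CLP by 0.76 ± 0.17 (adjusted p = 0.000537), B lower than A by -1.31 ± 0.17 (5.49e-08, no overlap) and B lower than CLP by -0.55 ± 0.17 (0.0133). The last call was lost without CLP array 1 (0.0546), with quantile normalization (0.0949) and with median centring (0.674; range over alternatives 4.85e-07 to 0.674). From C to D each D array lay above each C array, but the difference of 0.42 ± 0.20 was not called (0.139). The second Rbl2 probe set, 1418146_a_at, followed a different course. It gave A against CLP as 0.09 ± 0.19 (0.729), C against B as 1.15 ± 0.21 (5.9e-05), D against C as -0.59 ± 0.22 (0.0564) and F against CLP as -0.52 ± 0.21 (0.0415). Its values for B against A, -1.29 ± 0.19 (7.18e-07), and B against CLP, -1.19 ± 0.19 (6.13e-06), had the direction of the first probe set. No direction is therefore given for Rbl2 beyond B.

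Btg1 (chr10:96617001-96622813) encodes an antiproliferative protein and is often deleted in B cell leukaemia. Its signal was 3865, 4590.2 and 5234 in CLP, 3814.5, 9168 and 13105.5 in A, and 5655, 7690.3 and 11562 in B. The C arrays gave 5722, 4952, 9406, 6969 and 9163, and the D arrays 12756, 12512, 13831, 15901 and 11705. The E arrays gave 16781, 13897, 17215, 17894 and 16934, and the F arrays 16688, 17765, 19578, 19075.5 and 20129. The order of the means was F, E, D, A, B, C and CLP. Btg1 was higher in A than in CLP by 0.79 ± 0.18 (adjusted p = 0.000548), in B than in CLP by 0.79 ± 0.18 (0.000823; 0.0623 with quantile normalization and 6.82e-06 to 0.0623 over alternatives), and in D than in C by 0.92 ± 0.21 (0.00148), the last from 7242.5 ± 2000.3 (SD, n = 5) to 13341 ± 1620.3 (n = 5) with no overlap. In F it was higher than in CLP by 2.04 ± 0.20 (2.73e-11), 4.10-fold on this scale, and no arrays overlapped. E against D was 0.31 ± 0.21 (0.548) and F against E 0.17 ± 0.21 (adjusted p = 1). The other probe sets kept the direction of the rise from C to D with different sizes. On 1426083_a_at it was 0.74 ± 0.16 (0.000997), and on 1442018_at it was 3.19 ± 0.37 (2.79e-08), from 310.2 to 705 in C to 3392 to 5491 in D. The latter also fell from B to C by 1.25 ± 0.34 on the log2 scale (0.00603), a step at which the others were not called.

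Btg2 (chr1:134074865-134079155) encodes a relative of Btg1 that is known as an early response gene and a p53 target. Its signal was 294, 443 and 905 in CLP, 693, 1151 and 1847 in A, and 353, 584 and 1311 in B. C gave 839.8, 754, 1398, 1173.5 and 1458, D gave 1787, 2455, 1992, 3012 and 2903, E gave 1209.7, 1311, 1239, 1309 and 1311, and F gave 997, 1322, 1187.5, 1263 and 1101. D had the highest mean. Each D array lay above each array of E, F, C, B and CLP, while A array 7 (1847) lay above D array 1 (1787). The rise from C to D was 1.11 ± 0.29 (adjusted p = 0.00497), from 1125 ± 319 (SD, n = 5) to 2429.9 ± 540.4 (n = 5), and F was 1.24 ± 0.27 above CLP (0.000277). The second probe set, 1416250_at, gave 0.94 ± 0.26 from C to D (0.00887) and 1.05 ± 0.25 for F against CLP (0.00062), both without overlap. E against D was -0.88 ± 0.29 (0.0522); it was 5.42e-05 when D and E were fitted alone and 0.044 without D array 1, and ranged up to 0.139. C against B was 0.71 ± 0.27 (0.0524), and passed without B array 1 (0.036), B array 4 (0.0147), C array 1 (0.0439) or C array 2 (0.0319), with a range of 0.00038 to 0.511. A was above CLP by 1.19 ± 0.25 (0.000209) and B below A by -0.76 ± 0.25 (0.0165). The second probe set gave A against CLP as 0.40 ± 0.22 (0.163). B against A was lost without B array 2 (0.0572), with median centring (0.084) and in a fit of A and B alone (0.157; range 0.00338 to 0.157).

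Tob1 (chr11:94209842-94215495) encodes a larger member of the same family. Its signal was near the array medians before D: 86.2, 133 and 269 in CLP, 7.3, 93.1 and 389.5 in A, and 11.4, 125 and 317 in B. The C arrays gave 129, 108, 186, 195 and 162.5, below the D arrays at 497, 452, 503, 616 and 415. E gave 541, 510.5, 511, 641 and 662, and F 399.6, 494, 619, 487 and 403. All 15 arrays of D, E and F lay above all arrays of CLP, A, B and C. The rise from C to D was 1.5 ± 0.46 (adjusted p = 0.0159), from 156 ± 36.9 (SD, n = 5) to 497 ± 75.7 (n = 5), and F was 1.44 ± 0.43 above CLP (0.00579). With a pseudocount of 1 the rise to D was 1.68 and not called (0.094; range over alternatives 5.67e-06 to 0.094).

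**Figure D2:**
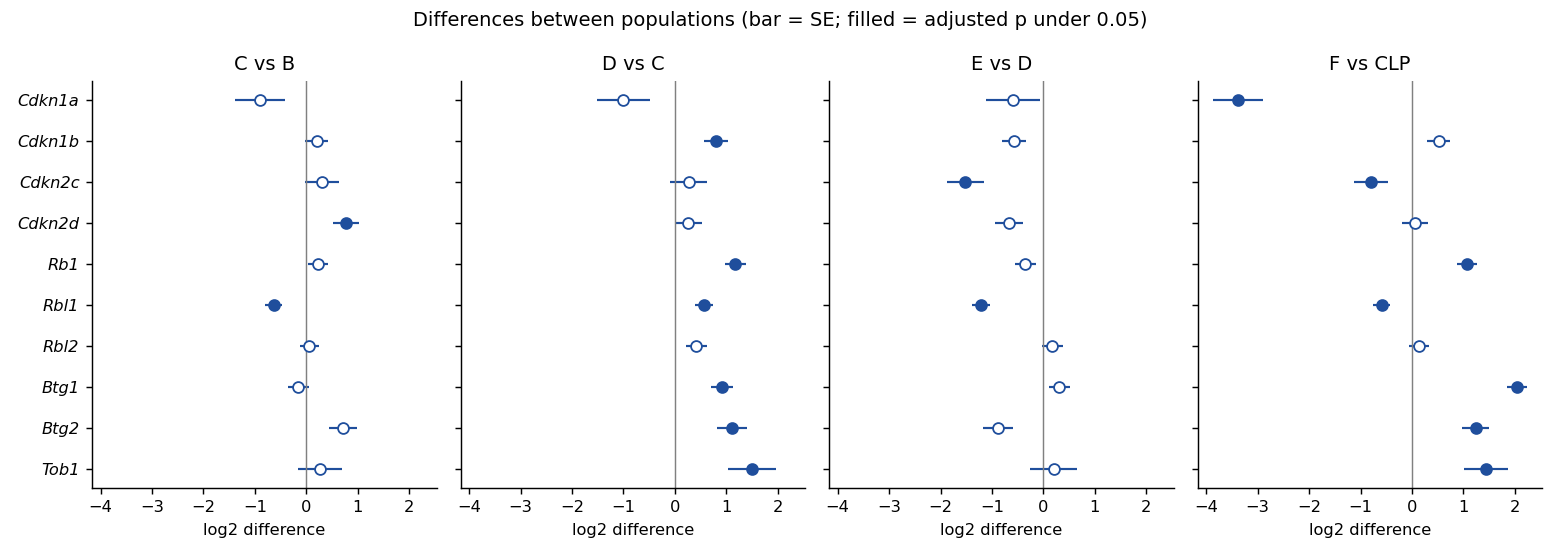
Log2 differences of the 10 genes for C against B, D against C, E against D and F against CLP, with the SE as a bar and filled points for an adjusted p under 0.05. At D against C the 6 filled points lie between 0.57 (Rbl1) and 1.5 (Tob1), and at E against D the filled points are Cdkn2c at -1.52 and Rbl1 at -1.21.

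At the step from C to D the 6 called members came from 3 of the 4 groups: Cdkn1b of the CIP/KIP inhibitors, Rb1 and Rbl1 of the retinoblastoma family, and Btg1, Btg2 and Tob1. In Rb1, Btg1, Btg2 and Tob1 the D arrays did not overlap the C arrays, and in Cdkn1b and Rbl1 they did. The share of all tested genes without such overlap is not given here. The INK4 genes were not called, and Cdkn1a had a value of the opposite sign. In a fit without the fraction A arrays, 6 members rose and Cdkn1a fell (-1.0; adjusted p = 0.00799), where 14.2% of all tested genes rose and 22.0% fell. The same counts of 6 and 1 were found without A arrays 4, 6 and 7 and B arrays 1 and 4, a set doubted after the data were seen (all genes 16.6% and 25.5%). At the step from D to E the count depended on which arrays set the spread. The 2 called members, Cdkn2c and Rbl1, both fell, while in a fit of D and E alone 6 fell and Btg1 rose (0.31; 0.00813), and calls over all genes went up as well, to 12.7% higher and 12.2% lower. Without fraction A 4 members fell from D to E and none rose (all genes 7.87% lower and 7.58% higher), and without the 5 doubted arrays 5 fell and none rose (9.41% and 9.36%). For C against B the count of 2 became 4 in both of these fits, 2 higher and 2 lower (all genes 24.2% and 13.9% without fraction A, and 22.8% and 15.7% without the 5 arrays), and 1 without C array 3 or C array 5.

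**Figure D3:**
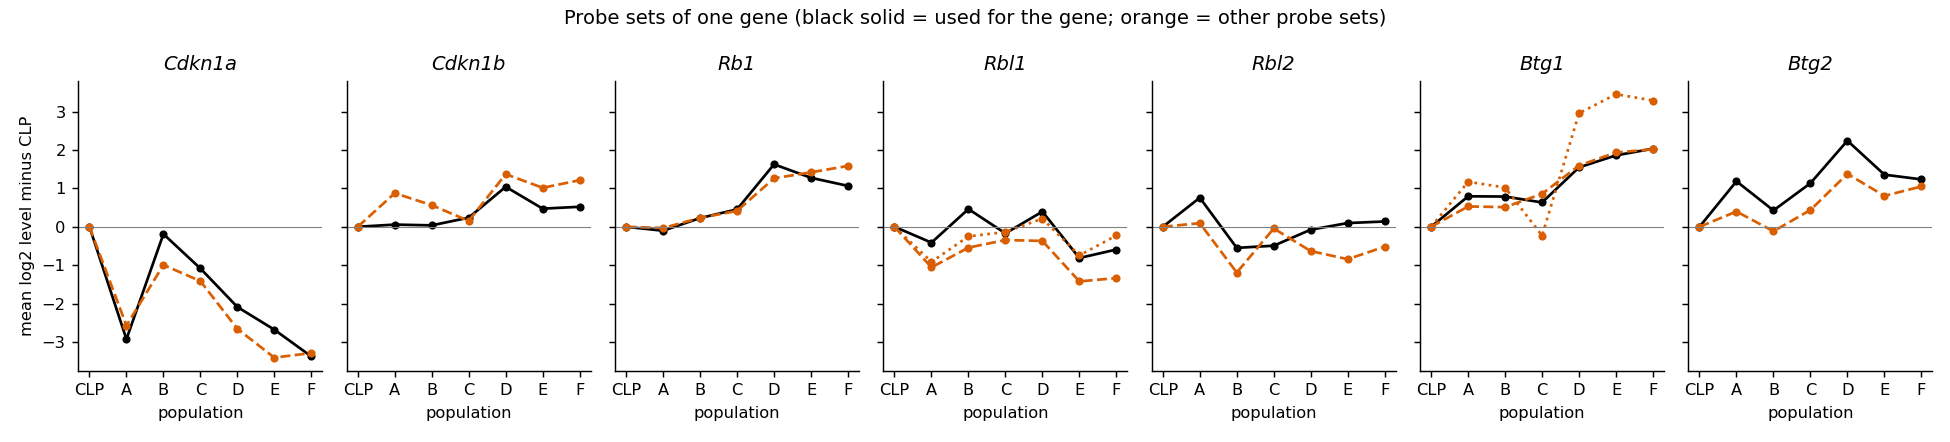
Mean log2 level of each population minus that of CLP for the 7 genes with more than 1 tested probe set, with the probe set used for the gene in black and the others in orange. The lines of Btg1 rise together from C to D by 0.74 to 3.19, while those of Rbl2 part between B and D.

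The proliferation list, 32 tested genes of DNA replication and mitosis, went up from A to B (24 rose, 0 fell, median 0.95), down from B to C (0 rose, 18 fell, median -0.73), partly up from C to D (8 rose, 1 fell, median 0.19) and down from D to E (0 rose, 26 fell, median -1.50). Of all tested genes, 16.9% rose and 14.5% fell from A to B, and 14.2% and 8.75% from B to C. The shares were 7.51% and 13.8% from C to D, and 3.90% and 4.21% from D to E. From C to D the called members with the largest differences were Nusap1 (1.04) and Kif11 (0.93), both of the mitotic spindle, and Tk1 (-1.15), thymidine kinase. From D to E they were Bub1 (-2.10), of the spindle checkpoint, and Birc5 (-2.05), survivin. The directions of these counts were alike with quantile normalization and median centring, although the count for B to C went to 9 with the former and 22 with the latter, and 3 rather than 1 fell from C to D with the former. At the step from D to E, where 26 proliferation genes fell, Cdkn2c and Rbl1 fell with them, and the levels of Btg1, Tob1 and Rb1 stayed above all C arrays.

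The arrays of 1 population also differed in this respect. In C the mean proliferation level was 12.02 and 12.06 (log2) on arrays 1 and 2 and 11.38, 10.97 and 11.14 on arrays 3, 4 and 5. Arrays 1 and 2 had the lowest Cdkn1b (1452 and 1379), Btg1 (5722 and 4952) and Btg2 (839.8 and 754) of C, and the highest Cdkn2c (3087 and 2719) and Rbl1 (1595 and 1745). On the Btg1 probe set 1442018_at, however, array 1 was the highest of C (705.1), and on the Rbl1 probe set 1432604_at it was the lowest (394.2). The remaining tested probe sets of these genes kept the order. In E array 2 had the highest proliferation level, 10.92 against 10.07 to 10.33, with the lowest Btg1 (13897) and Cdkn1b (1794) and the highest Cdkn2c (1198) and Rbl1 (1024). Its Btg2, 1311.3, was also the highest of E, unlike in C, and the second Cdkn1b probe set was highest there (2487.5). E array 1, however, was the lowest on the Btg1 probe set 1442018_at (5186.7) and the highest on the second Btg2 probe set (975). In F array 2 was highest at 10.90 and had the highest Cdkn2c (1347) and Btg2 (1322), but its Rbl1 (1109.7) was not the highest and its Btg1 (17765) and Cdkn1b (1862) were not the lowest. Other probe sets differed: F array 2 had the highest Rbl1 on 1425166_at (796.7) and on 1432604_at (585.2). It also had the lowest Btg1 of F on 1426083_a_at (14844.3) and on 1442018_at (4821.8). The second Cdkn1b probe set was highest on F array 2 (2722.8), while the second Btg2 probe set (1048.2) was not. These are values of single arrays, given without a test.

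**Figure D4:**
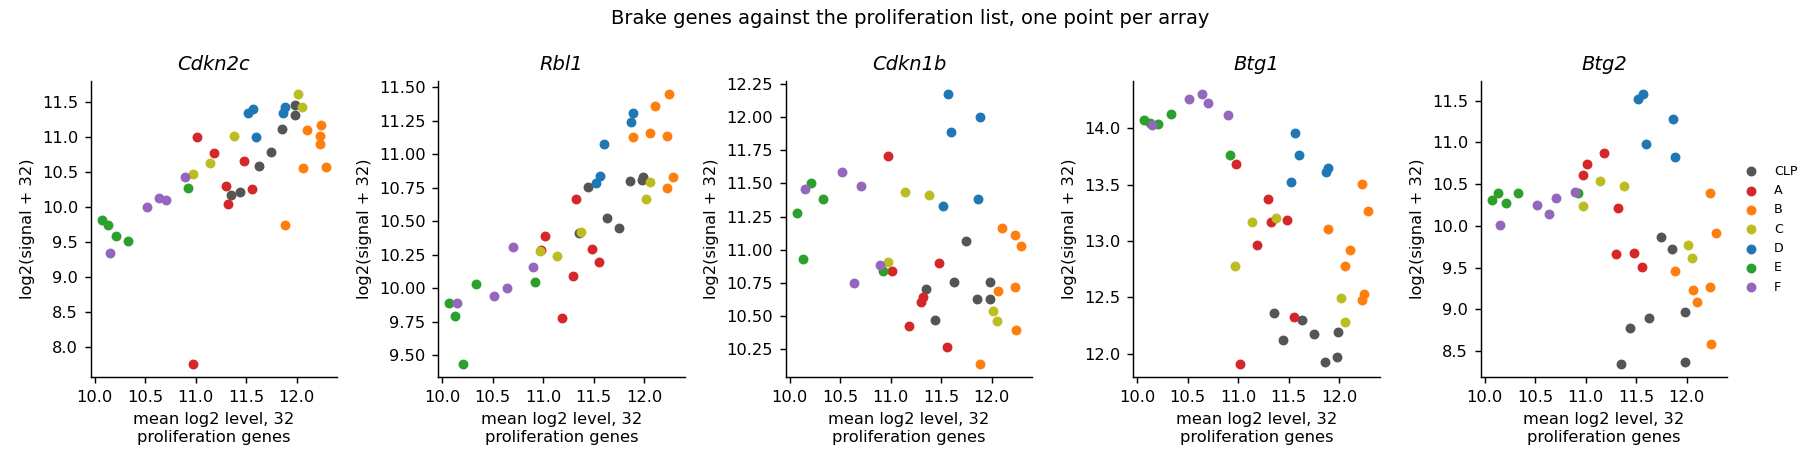
Log2(signal + 32) of Cdkn2c, Rbl1, Cdkn1b, Btg1 and Btg2 on the 41 arrays against the mean log2 level of the 32 proliferation genes on the same array, coloured by population. Cdkn2c and Rbl1 are low in E and F, where the proliferation level is 10.07 to 10.92, and the D arrays lie above the C arrays in Btg1 and Btg2 within the proliferation range of C.

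Among the partners of the brakes, the E2F and DREAM list (16 tested genes) had 3 higher and 1 lower member in D than in C, led by Lin9 (1.18), a core subunit that Rbl1 and Rbl2 complexes share, E2f5 (1.12), a repressor E2F that binds pocket proteins, and Lin37 (-0.94), with a list median of 0.11. Of all tested genes, 7.51% were higher and 13.8% lower in D than in C. Without the 5 doubted arrays 5 of the E2F and DREAM list were higher and 5 lower (all genes 16.6% and 25.5%). From D to E 0 rose and 4 fell (all genes 3.90% and 4.21%), led by the atypical repressors E2f8 (-2.05) and E2f7 (-1.62). From CLP to F 2 rose and 10 fell (all genes 15.2% and 26.7%). Of 14 tested G1 cyclins, kinases and SCF-Skp2 genes, which are what the CDK inhibitors act on or are removed by, 0 rose and 6 fell from C to D (list median -0.37, all genes 7.51% and 13.8%). The largest falls were in Ccnd2 (-2.59), cyclin D2, and Cdk6 (-1.48), a kinase that Cdkn2c and Cdkn2d bind. From D to E 1 rose and 4 fell (all genes 3.90% and 4.21%): Ccnd2 went up by 3.06 and Skp2 (-1.62), which marks p27 for breakdown, and Ccnd3 (-1.36) went down. From CLP to F 0 rose and 7 fell (all genes 15.2% and 26.7%), led by Ccnd3 (-2.85) and Cdk6 (-2.08). The remaining CDK inhibitors Cdkn1c, Cdkn2a and Cdkn2b did not pass the filter, and their summed signal ranged from 37.9 to 296.6 over the 41 arrays.

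The list of p53 and its targets was split at the steps where Cdkn1a fell. From CLP to A 3 of 15 rose and 4 fell, close to the 11.5% and 25.6% of all genes (medians -0.04 and -0.23), with Pmaip1 (1.36) and Bbc3 (1.07), both promoters of apoptosis, among the former and Aen (-1.24) and Gadd45a (-0.79) among the latter. From CLP to F 3 rose and 3 fell (all genes 15.2% and 26.7%), led by Pmaip1 (1.57) and Mdm4 (1.34), and by Phlda3 (-1.64) and Perp (-1.13). From C to D 2 rose and 2 fell (all genes 7.51% and 13.8%), and from D to E none was called by limma. Without the 5 doubted arrays the counts from CLP to A were 2 and 2 (all genes 15.2% and 20.9%). The BTG and CCR4-NOT list had 1 of 12 higher and 3 lower in D than in C (all genes 7.51% and 13.8%). Cnot7 (0.74), the deadenylase that BTG and TOB proteins bind, was higher, and Cnot3 (-1.16) and Cnot8 (-0.73), the close relative of Cnot7, were lower. Without the 5 doubted arrays 4 of the list were higher and 3 lower (all genes 16.6% and 25.5%). Of 5 transcription factors linked to quiescence, Klf2 (1.92) and Foxp1 (1.40) rose from C to D and none fell; Foxo1, Foxo3 and Foxo4 were not called there. Of 14 immediate early genes, which cell handling can also induce, 6 rose from C to D, led by Fosb (3.69) and Fos (3.42), and 0 fell (all genes 7.51% and 13.8%). From B to C 0 rose and 6 fell (all genes 14.2% and 8.75%), and from CLP to A 7 rose and 0 fell (11.5% and 25.6%). From D to E 2 rose and 0 fell (3.90% and 4.21%), and from CLP to B 3 rose and 0 fell (8.81% and 19.1%). Btg2, itself an early response gene, was called higher at the steps from CLP to A and from C to D, but was -0.88 (not called) from D to E. The part of sample handling was not tested.

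Of all other tested genes, those whose log2 signals over the 41 arrays were most like a member's are given by Pearson's r as a description, since the arrays share their populations, scaling and sorting. For Rbl1 they were Ncapg2 (0.894), Aspm (0.886) and Cenpk (0.882), and for Cdkn2c Fignl1 (0.883), Pbk (0.881) and Cdkn3 (0.88). For Tob1 they were Fli1 (0.947), Crebbp (0.917) and Ormdl1 (0.915), for Btg1 Cd55 (0.915), Zfp36l1 (0.901) and Ikzf3 (0.899), and for Rb1 Eif2ak3 (0.861), 4930426D05Rik (0.859) and Cc2d2a (0.857). Cdkn1a was closest to Sae1 (0.888), Ada (0.886) and Ripor1 (0.884), and Rbl2 to Cd47 (0.822), Kmo (0.811) and Ms4a6b (0.798). Btg2 was closest to Rgs2 (0.803), Dnajc7 (0.781) and Nupr1l (0.765). Cdkn1b and Cdkn2d had the lowest best values, Cd1d1 at 0.778 (then A430035B10Rik at 0.752 and Dcaf6 at 0.736) and Maf1 at 0.735 (then Carhsp1 and Lrrc8a, both at 0.715).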

How the data were processed

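Gene expression was measured on 41 Affymetrix arrays of sorted cells, whose RNA was extracted with Arcturus PicoPure, amplified with NuGEN Ovation Pico and labelled with biotin, per the labels' protocols. The authors deposited MAS5 signal intensity values on a linear scale, per the submitters' processing notes (version not given in the sources used here); on each array the mean of the values, trimmed by 2% at each end, was 500. Of 45101 probe sets, 64 were controls, 34945 had 1 gene in the platform annotation and 932 several, and the latter were not used. Each gene was represented by its probe set with the highest mean. A gene was tested if 5 or more arrays had it at or above their own median, which left 11951 of 18193. Values were taken as log2(signal + 32) and fitted with limma 3.58.1 (R 4.3.3) as 7 population means over all 41 arrays, with trend and robust empirical Bayes moderation and Benjamini-Hochberg adjustment over all tested genes; the same fit was made for 23052 probe sets. The test was also run on simulated data with independent normal errors, which cannot show whether the arrays are separate animals. The precision is limited by the number of arrays.

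Members, gene lists and cell type markers were chosen with earlier results of these data known. The text names all members, at most the 2 called genes with the largest difference in each direction of each list, and the 3 genes most like each member; Foxo1, Foxo3 and Foxo4 were named in addition after their values were seen. Alternatives were the pseudocount, the filters, the normalization, the choice of probe set, array weights, the fit's samples, the replicate number as a block, and leaving out each array.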

Additional observations from a re-analysis of the deposited data

Results flagged for a closer look

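In 4 of the 70 groups of arrays, formed by the 10 genes and 7 populations, 1 array lay far from the others by Dixon's criterion, which chance alone meets in about 1 in 20 groups. Cdkn2c was lowest on array 4 of fraction A, at a signal of 184.8, with the other A arrays at 1023.4 to 2006; this array also had the highest Gapdh 3'/5' ratio, 33.8, and the part of RNA quality was not tested. Cdkn2c was also low on array 3 of fraction D, at 2010.8, with the others at 2552.7 to 2716.7. Rbl2 was highest on array 1 of CLP, at 1628.9, with the others at 753.9 to 1048.2. Btg1 was lowest on array 2 of fraction E, at 13897.2, with the others at 16781.1 to 17894; this array had the highest proliferation level of E, and no test was made of that relation.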

How the results depend on the processing

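Over all results and alternatives, 1935 values kept their direction and side of the threshold, 71 passed it in addition, 45 lost it and 1 reversed: with the mean of its probe sets, Rbl1 in B against CLP was -0.0753 (adjusted p = 0.761). With the same mean Rbl1 was -0.07 in C against B (0.799) and 0.28 in D against C (0.288). The cause was not tested. Counts of called members moved by more than 1.5 times in B against CLP (4, and 1 with quantile normalization), in C against B (2, but 1 with quantile normalization and 4 with array weights, without fraction A or without A arrays 4, 6 and 7 and B arrays 1 and 4, the last chosen after seeing the data) and in E against D (2, but 8 with array weights, 7 with D and E alone, 4 without fraction A and 5 without those 5 arrays). With array weights, calls over all genes were 22.8% higher and 15.8% lower in C against B. In E against D they were 13.1% and 13.2%. Leaving out 1 array gave 4 to 6 calls in A against CLP, 3 to 6 in B against A, 3 to 4 in B against CLP, 1 to 3 in C against B, 5 to 6 in D against C, 2 to 3 in E against D, 0 in F against E, 6 to 8 in F against CLP and 10 by the F-test. Rb1, Btg1 and Btg2 in D against C and F against CLP, Cdkn1a in A against CLP, B against A and F against CLP, and Cdkn2c and Rbl1 in E against D were called in each alternative run. Same-numbered samples did not deviate together: over 111 pairs the correlations ranged from -0.253 to 0.219 with a median of 0.00669, and 9 were over 0.1. With the replicate block the counts were 5, 4, 4, 3, 6, 3, 0 and 7 for A against CLP, B against A, B against CLP, C against B, D against C, E against D, F against E and F against CLP, and 10 by the F-test. The F-test count fell to 9 with quantile normalization and with median centring. It was also 9 when probe sets were averaged, where Tob1 was not tested. Signals near the array median, as for Tob1 before D, lie close to background, where fold changes are understated.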
